A study of Mus musculus with 27 samples.

Results

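The 9 genes described here make, package, recover, break down or receive acetylcholine in the developing mouse retina. They are the synthetic enzyme Chat, the vesicular transporter Slc18a3, the choline transporter Slc5a7, the esterase Ache and the nicotinic receptor subunits Chrna3, Chrna4, Chrna6, Chrnb2 and Chrnb3. They were taken by symbol from the 38168 features of a table of cpm values (the reads of a feature scaled to a fixed total of reads in each library). Each symbol matched 1 entry, and all 9 passed the filter of at least 1 cpm in at least 3 libraries, which left 31760 features for testing.

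RNA was sequenced from whole retinas of wild type C57BL/6J mice, an inbred strain, in 27 libraries. There were 3 libraries at embryonic day 14 (E14), 3 at E17, 4 at postnatal day 1 (P1), 3 at P6, 4 at P15, 4 at P28 and 6 at P60. Retinas were pooled for each library up to P28, whereas P60 included both pools and single mice. Embryonic and P1 pools held both sexes and later ones males, so that sex changes together with age. No agent was given, and no group differed in genotype. All tissue was taken in the afternoon of the light phase.

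Spontaneous retinal waves are bursts of firing that spread between neighbouring cells before vision begins. Starburst amacrine cells release acetylcholine during the cholinergic stage of the waves, in the days around birth and the first postnatal week. Ganglion cells and the starburst cells themselves respond through nicotinic receptors, which are channels of 5 subunits. In these receptors alpha subunits such as α3, α4 and α6 pair with β2, and β3 takes an accessory position. Loss of β2 is known to disrupt the cholinergic waves. Gap junctions carry waves before this stage, and glutamate from bipolar cells drives them after it.

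The cpm scale of the libraries rested on 7077781 to 11332323 counted reads, and 1 cpm was thus about 7 to 11 reads. These totals were recovered from the cpm values and are below the number of reads the study states were collected per library. No pair of libraries of an age was as alike as sampling alone would make them (lowest chi-square per degree of freedom 1.72), and each was counted as 1 sample. P-values of the limma tests measure the spread between pools and mice of an age. The exact permutation tests shuffled single libraries across ages and counted each library as 1 unit. Libraries of an age can lie together, so these p-values do not measure the spread between the ages of a group. The summed level of 6 rod markers rose from 16.7 to 23.5 cpm at E14 to 24460 to 29790 cpm at P60. In whole retina a gene's cpm falls as RNA of other cells is added, and fewer cells of a type cannot be told apart from less RNA per cell. Summed markers of muscle, lens, retinal pigment epithelium and blood stayed at or below 7.28, 7.85, 51.8 and 50.3 cpm in every library.

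Transcripts for acetylcholine handling did not share one course. Chat and Slc18a3 appeared between E14 and E17, Slc5a7 was already present at E14 and dipped at P1, and Ache had its highest age mean at P60. None of the 9 genes had its highest age mean at P1 or P6, the ages in these data within the cholinergic wave stage. The highest mean was at E14 for 2 genes, at P15 for 1, at P28 for 3 and at P60 for 3.

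Chat encodes choline acetyltransferase, which makes acetylcholine. It lies on chromosome 14 at 32408203 to 32465989 of GRCm38, minus strand. Slc18a3, the vesicular acetylcholine transporter, is a gene of 1 exon at 32462438 to 32464850 on the same strand, inside the Chat span, and shares 0 exon bases with Chat. This cholinergic locus is an arrangement known from other animals. The sequences before the start of each gene are shown because neighbouring genes of this locus had different courses after P6. They are RefSeq sequences (GRCm38.p6), printed 5′ to 3′ on the minus strand, at chr14:32465990-32466159 for Chat and chr14:32464851-32465100 for Slc18a3. The window for Slc5a7, at chr17:54299035-54299284, completes the 3 genes of cholinergic neurons. Capitals mark matches on either strand to GGGCGG (bound by Sp1-type factors), CAGCTG (an E-box), TAATTA (a homeodomain motif) or CCAAT, of which no match overlapped another.
Chat: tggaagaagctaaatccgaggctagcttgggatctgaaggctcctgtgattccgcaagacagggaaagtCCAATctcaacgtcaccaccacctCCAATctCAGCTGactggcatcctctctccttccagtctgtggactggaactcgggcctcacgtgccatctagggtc
Slc18a3: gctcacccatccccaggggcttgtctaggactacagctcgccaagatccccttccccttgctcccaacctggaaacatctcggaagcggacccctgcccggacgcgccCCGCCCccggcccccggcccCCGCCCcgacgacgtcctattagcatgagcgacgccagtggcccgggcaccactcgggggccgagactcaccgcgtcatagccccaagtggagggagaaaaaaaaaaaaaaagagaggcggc
Slc5a7: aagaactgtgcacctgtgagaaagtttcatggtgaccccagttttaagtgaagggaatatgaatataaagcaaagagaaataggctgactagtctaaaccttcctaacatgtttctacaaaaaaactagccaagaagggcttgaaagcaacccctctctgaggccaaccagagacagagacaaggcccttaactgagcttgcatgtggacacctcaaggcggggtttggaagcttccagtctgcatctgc

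The Chat window of 170 bases held 2 matches to CCAAT and 1 to CAGCTG, and the Slc18a3 window of 250 bases held 2 to GGGCGG. No match was in the Slc5a7 window. The Chat window is the part of the 250 bases before its RefSeq start that lies outside its annotated first exon. In the first 170 of these 250 bases, farthest from the start, 23.3% of 32851 RefSeq promoters held CCAAT and 8.6% held CAGCTG. In all 250 bases 32.7% of the promoters held GGGCGG. The GC content was 54.7%, 66.0% and 45.6% for Chat, Slc18a3 and Slc5a7. These matches describe the letters of the windows only. Promoter sequence was matched for 7 of the 9 genes, and Chrna6 and Chrnb3 were not matched.

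Chat was at 0 reads in all 3 libraries at E14. It stood at 1.53, 2.21 and 1.76 cpm at E17, at 2.94, 4.03, 2.71 and 2.48 cpm at P1 and at 2.83, 4.22 and 3.45 cpm at P6. At P15 it reached 7.90, 9.88, 11.4 and 11.7 cpm. Every P15 library was therefore above every P6 library, while P1 and P6 overlapped. At P28 the values were 8.39, 8.71, 7.44 and 7.42 cpm, and at P60 the lowest was 3.57, the median 6.40 and the highest 10.04 cpm. The P60 libraries were widely spread, with 3 between 3.57 and 4.59 cpm and 3 between 8.21 and 10.04 cpm.

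Against a floor of 3 reads per library, Chat was at least 5.9-fold higher at E17 and at least 32.9-fold higher at P15 than at E14. Between P6 and P15, its log2(cpm + 1) rose by 1.32 (SE 0.24, limma adjusted p = 7.57e-05). The steps from E17 to P1 (0.51, adjusted p = 0.246) and from P1 to P6 (0.16, adjusted p = 0.664) did not pass the limma test. Gm2990, an annotated gene on the opposite strand over the start of Chat, shares 0 exon bases with it and had age means of at most 0.431 cpm.

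Slc18a3 had 2, 0 and 1 reads in the E14 libraries. Its levels were 1.02, 0.882 and 0.725 cpm at E17, then 3.07, 2.40, 2.26 and 2.72 cpm at P1 and 2.40, 1.95 and 2.21 cpm at P6. All P1 libraries were above all E17 libraries, and from P6 onward each age overlapped the one before. P15 libraries had 2.54, 2.37, 2.56 and 3.02 cpm, P28 libraries 2.53, 3.23, 3.11 and 2.51 cpm, and P60 libraries 1.65 to 3.02 cpm with a median of 2.05. Of these later ages, P6 and P28 did not overlap. The ratio of E17 to E14 was 8.48 (exact 95% counting interval 2.61 to 43.7). Slc18a3 rose by 0.94 from E17 to P1 on the log2(cpm + 1) scale (SE 0.17, limma adjusted p = 0.000301). With a pseudocount of 0.1 this step was 1.48. The later steps were -0.18, 0.18, 0.08 and -0.28, with limma adjusted p values of 0.459, 0.45, 0.899 and 0.201.

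Chat rose between P6 and P15 while Slc18a3 had no call. In cpm Chat was above Slc18a3 at E17 (means of 1.83 and 0.876), overlapped it at P1 and was above it in every P6 and P15 library, whereas per kilobase of exon Slc18a3 was above Chat at P1 (1.08 and 0.647 cpm per kb, with no overlap). The difference of Chat minus Slc18a3 in log2(cpm + 1) ranged from -0.10 to 0.82 in the 7 libraries of P1 and P6 and from 0.48 to 1.88 in the 14 mature libraries (P15, P28 and P60). Means were 0.30 and 1.32, a difference of 1.03 (exact two-sided permutation test over libraries, p = 5.16e-05). The ranges overlapped. This test was chosen after seeing the data.

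Slc5a7 encodes the high-affinity choline transporter, which returns choline to cholinergic endings. It lies on chromosome 17 at 54273590 to 54299034, minus strand. Levels were 4.90, 3.798 and 6.74 cpm at E14 and 4.29, 5.29 and 4.56 cpm at E17. They were only 2.58, 0.63, 1.47 and 2.48 cpm at P1, which rest on 5 to 21 reads. All P1 libraries were below all libraries of the other 6 ages. The P6 libraries had 9.04, 8.33 and 8.14 cpm. P15 had 15.4, 19.8, 18.9 and 18.3 cpm, P28 had 15.7, 21.2, 18.7 and 18.6 cpm, and P60 had 11.5 to 18.3 cpm with a median of 15.7. From E17 to P1 Slc5a7 fell by 1.10 on the log2 scale (SE 0.21, limma adjusted p = 0.000368), then rose by 1.83 to P6 (SE 0.21, adjusted p = 1.01e-08) and by 1.001 to P15 (SE 0.21, adjusted p = 0.000286). The dip at P1 was opposite to the step of Slc18a3 between the same ages, which have the E17 and P1 libraries in common.

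Ache encodes acetylcholinesterase, which ends the transmitter's action. It lies on chromosome 5 at 137287519 to 137294466, plus strand. Its libraries had 5.50, 5.59 and 4.74 cpm at E14, 8.69, 8.21 and 10.7 cpm at E17 and 6.87, 7.69, 8.71 and 5.68 cpm at P1. They then had 14.6, 11.1 and 12.8 cpm at P6, 24.1, 25.4, 22.8 and 24.9 cpm at P15, and 26.8, 31.3, 25.4 and 30.8 cpm at P28. At P60 the lowest, median and highest were 32.2, 38.0 and 45.5 cpm. From P6 onward, the libraries of each age lay wholly above those of the age before. Ache rose by 0.69 from E14 to E17 (SE 0.15, limma adjusted p = 0.00104), by 0.76 from P1 to P6 (SE 0.14, adjusted p = 3.85e-05) and by 0.88 from P6 to P15 (SE 0.14, adjusted p = 6.58e-06) on the log2 scale. The step from P15 to P28 was 0.22 (adjusted p = 0.464).

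From P28 to P60 Ache rose by 0.43 (SE 0.12, limma adjusted p = 0.0192). The call was lost without P28 replicate 1 (0.40, adjusted p = 0.065) or P28 replicate 3 (0.37, adjusted p = 0.0685), and in a fit of the 2 ages alone (adjusted p = 0.17). Gm42456 on the opposite strand shares 98 exon bases with Ache and was not analysed here.

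**Figure D1:**
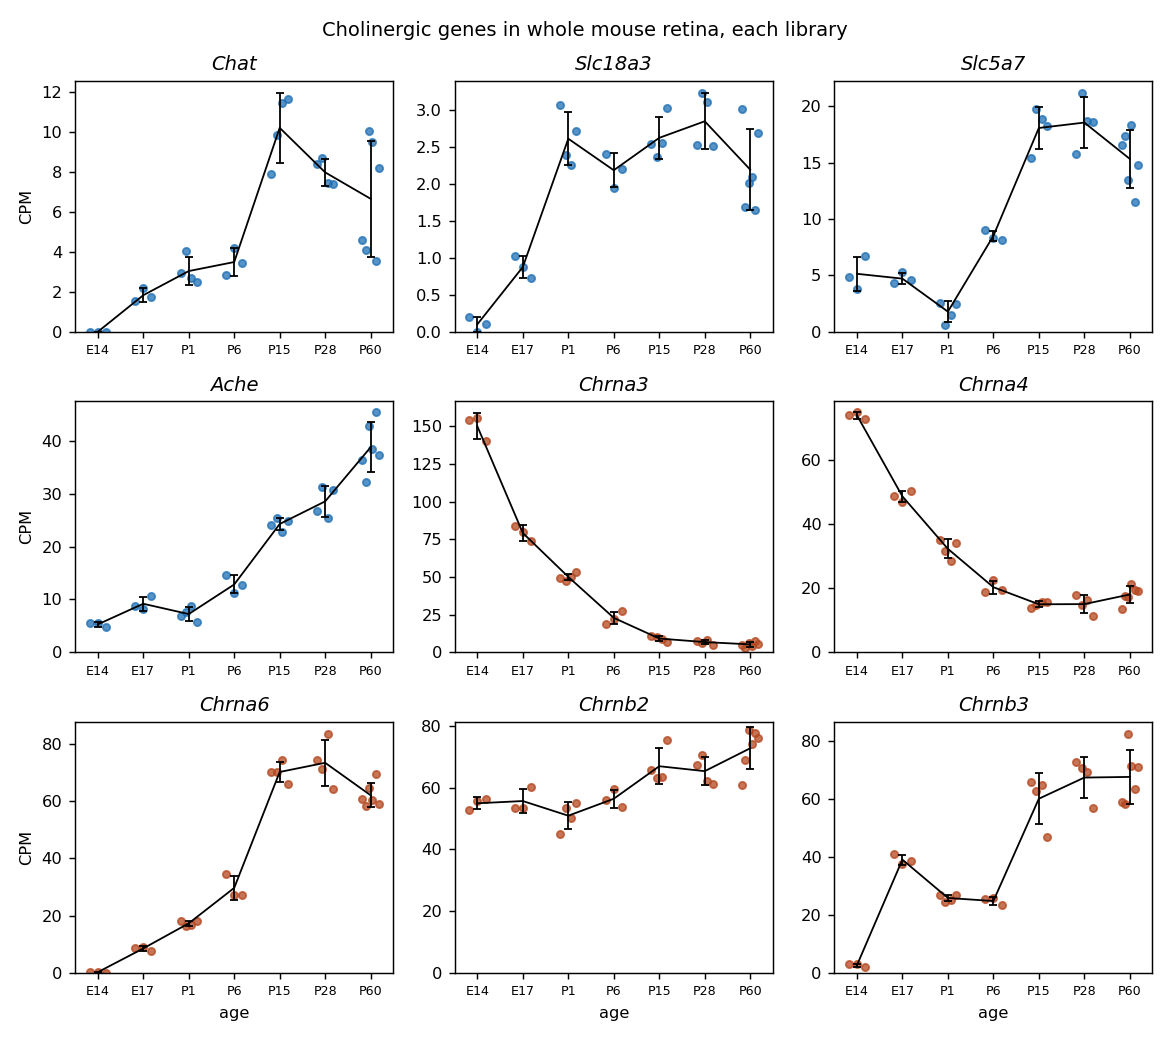
Level in cpm (vertical axis, starting at 0, one scale per gene) of the 9 genes in each of the 27 libraries by age (horizontal axis); points are libraries and lines mark age means. Chat is at 0 in all E14 libraries, Chrna3 is highest at E14 (140 to 156 cpm), and Ache is highest at P60 (32.2 to 45.5 cpm).

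Among the nicotinic subunits, the alpha subunits exchanged places with age. Chrna3, whose product pairs with β2 or β4, and Chrna4, whose product pairs mainly with β2, were high at E14 and fell. Chrna6, a subunit known from retinal ganglion cells and dopamine neurons, was at or near 0 at E14 and rose until P15. Chrnb3 rose in separate steps, and Chrnb2 varied least of the 9. Of the 5 genes, Chrnb3 (chromosome 8, 27368711 to 27399730, plus strand) and Chrna6 (27403212 to 27413944, minus strand) are neighbours, 3481 bases apart. Chrna3 (chromosome 9, 55010111 to 55026562, minus strand) lies between Chrna5 and Chrnb4, with gaps of 2331 and 1591 bases.

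The windows before Chrna3, at chr9:55026563-55026812, and Chrnb2, at chr3:89764633-89764882, are shown as those of the subunit that fell most and of the one that varied least. Both are on the minus strand and from the same RefSeq build, with matches to the same 4 motifs in capitals.
Chrna3: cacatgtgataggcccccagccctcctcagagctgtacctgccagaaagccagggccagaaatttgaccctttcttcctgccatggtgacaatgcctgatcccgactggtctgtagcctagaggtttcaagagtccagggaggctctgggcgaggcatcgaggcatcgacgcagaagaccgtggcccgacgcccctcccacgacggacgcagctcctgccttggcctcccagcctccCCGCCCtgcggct
Chrnb2: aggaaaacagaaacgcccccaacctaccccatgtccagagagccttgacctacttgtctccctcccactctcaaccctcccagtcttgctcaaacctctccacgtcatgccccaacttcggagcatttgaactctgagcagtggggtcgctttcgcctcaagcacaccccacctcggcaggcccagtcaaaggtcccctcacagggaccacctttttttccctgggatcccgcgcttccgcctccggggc

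Chrna3 had 1 match to GGGCGG, and Chrnb2 none to the 4 motifs. Within 250 bases, 33.8% of the 32851 promoters held CCAAT, 13.0% CAGCTG and 4.8% TAATTA. The GC content of the Chrna3 window was 63.2% and that of the Chrnb2 window 59.6%.

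Chrna3 encodes α3. The E14 libraries had 154.6, 155.6 and 140.1 cpm, the E17 libraries 84.0, 80.0 and 73.6 cpm, the P1 libraries 49.3, 47.6, 50.3 and 53.0 cpm and the P6 libraries 19.1, 22.2 and 27.3 cpm. No library of one of these ages lay within the range of another. P15 had 10.7, 10.01, 9.01 and 6.74 cpm, P28 had 7.46, 6.32, 8.25 and 5.03 cpm, and P60 had 2.53 to 7.69 cpm with a median of 5.31. The last 3 ages overlapped. Chrna3 fell by 0.91 from E14 to E17 on the log2(cpm + 1) scale (SE 0.21, limma adjusted p = 0.00232), by 1.11 from P1 to P6 (SE 0.19, adjusted p = 2.16e-05) and by 1.24 from P6 to P15 (SE 0.19, adjusted p = 6.43e-06).

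The step of Chrna3 from E17 to P1 was -0.65 (SE 0.19, limma adjusted p = 0.0283). It did not pass without any 1 of E17 replicates 1, 2 and 3 (-0.61, -0.64 and -0.70, adjusted p = 0.12, 0.0934 and 0.0598) or P1 replicates 1, 2 and 3 (-0.64, -0.63 and -0.65, adjusted p = 0.0586, 0.069 and 0.0551), nor with a pseudocount of 0.1 (adjusted p = 0.0693). The direction was the same in each case.

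Chrna4 encodes α4 and lies on chromosome 2 at 181018380 to 181043546, minus strand. Its levels were 73.9, 75.1 and 72.9 cpm at E14, 48.7, 46.9 and 50.4 cpm at E17, 35.0, 31.5, 28.5 and 34.2 cpm at P1 and 18.8, 22.6 and 19.6 cpm at P6. Here too every library was below those of the age before. At P15 they were 13.8, 14.7, 15.6 and 15.8 cpm, at P28 17.9, 14.6, 16.2 and 11.4 cpm, and at P60 13.5 to 21.3 cpm with a median of 18.4. Chrna4 fell by 0.59 (E14 to E17), 0.58 (E17 to P1) and 0.64 (P1 to P6), with limma adjusted p values of 0.00331, 0.00276 and 0.000171. The fall of 0.41 from P6 to P15 (adjusted p = 0.0141) lost its call without P6 replicate 2 (-0.34, adjusted p = 0.0928) and under median-of-ratios scaling (adjusted p = 0.0575). From P28 to P60 the change was 0.25 (adjusted p = 0.124). It passed without P60 replicate 1 (0.33, adjusted p = 0.0216). None of its age means after P6 was above 18.04 or below 14.98 cpm.

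Chrna6 encodes α6. It had 3, 2 and 0 reads at E14. Levels were 8.69, 9.09 and 7.66 cpm at E17, 18.0, 16.3, 16.6 and 18.2 cpm at P1, 34.6, 27.3 and 27.2 cpm at P6 and 70.1, 70.3, 74.5 and 66.1 cpm at P15. Each of these ages was clear of the one before. P28 had 74.6, 71.3, 83.6 and 64.4 cpm, and P60 had 58.3 to 69.5 cpm with a median of 60.65. The ratio of E17 to E14 was 49.3 (exact 95% counting interval 20.9 to 153). Chrna6 rose by 0.95 from E17 to P1 (SE 0.11, limma adjusted p = 3.09e-07), by 0.74 to P6 (SE 0.11, adjusted p = 2.93e-06) and by 1.22 to P15 (SE 0.11, adjusted p = 3.74e-10) on the log2 scale. The value for P28 to P60 was -0.24 (adjusted p = 0.0972).

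Chrnb3, the gene next to Chrna6, encodes β3. It had 2.90, 2.85 and 1.89 cpm at E14 and 40.9, 37.5 and 38.5 cpm at E17. It was lower at P1, with 26.6, 24.5, 25.1 and 26.9 cpm, and at P6 had 25.3, 25.6 and 23.2 cpm. P15 libraries had 65.8, 62.5, 64.6 and 46.9 cpm and P28 libraries 72.6, 70.6, 69.1 and 56.7 cpm. At P60 it ranged from 58.0 to 82.4 cpm with a median of 67.2. Chrnb3 rose by 3.51 from E14 to E17 (SE 0.14, limma adjusted p = 2.27e-18), fell by 0.58 to P1 (SE 0.13, adjusted p = 0.00229) and rose by 1.23 from P6 to P15 (SE 0.13, adjusted p = 3.79e-09). Its step from P1 to P6 was -0.06 (adjusted p = 0.764), while that of Chrna6 was 0.74. The neighbours thus had steps of opposite sign from E17 to P1, each past the limma threshold.

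Chrnb2 encodes β2 and lies on chromosome 3 at 89746195 to 89764632, minus strand. The libraries of E14, E17, P1 and P6 lay between 45.0 and 60.3 cpm and overlapped. In order of replicate they had 52.7, 55.8 and 56.4 cpm at E14, 53.6, 53.3 and 60.3 cpm at E17, 45.0, 53.4, 50.2 and 55.1 cpm at P1, and 56.1, 59.5 and 53.8 cpm at P6. P15 had 65.7, 63.2, 63.5 and 75.6 cpm, P28 had 67.55, 70.8, 62.1 and 61.2 cpm, and P60 had 60.8 to 78.8 cpm with a median of 75.3. Chrnb2 was the gene of the 9 with the smallest F statistic for age (9.70, limma adjusted p = 1.12e-05), a test that 83.0% of the 31760 features passed and that all 9 passed. Its highest age mean was 1.43 times its lowest.

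The step of Chrnb2 from P6 to P15 was 0.24 (SE 0.10, limma adjusted p = 0.0486). It did not pass in 18 of 27 fits with 1 library left out, which were those without any E14, E17, P6 or P28 library, P1 replicate 3, P15 replicates 1 or 4, or P60 replicates 4 or 6. Over all 27 fits the value was 0.18 to 0.28 and the limma adjusted p 0.0309 to 0.167. Adar, which encodes an RNA-editing enzyme on the opposite strand, shares 1365 exon bases with Chrnb2, and it is not stated whether counting used the strand. Adar rose by 0.47 in the same step (adjusted p = 0.000911) and by 0.63 from the embryonic to the mature ages (adjusted p = 1.41e-09), from 53.6 cpm at E14 to 106.3 cpm at P60. Its part in the Chrnb2 values was not tested.

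The calls of the members were counted for each step between neighbouring ages, beside the share of all tested features called. From E14 to E17, 5 rose and 2 fell, whereas 10.6% of all tested features were called (7.56% higher, 3.02% lower). From E17 to P1, 2 rose and 4 fell, and the background of features called was 9.21% (5.77% higher, 3.43% lower). Between P1 and P6, 3 rose and 2 fell (background 38.3%, with 18.0% higher and 20.4% lower). Between P6 and P15, 6 rose and 2 fell (background 33.4%, with 14.4% higher and 19.0% lower). From P15 to P28 limma called 0 of 9, against 2.72% of features (1.14% higher, 1.58% lower). EdgeR and DESeq2 on the recovered reads also called 0, and only Chrna3 passed in limma before adjustment at the same threshold. From P28 to P60, 1 rose and 0 fell (background 12.9%, with 4.80% higher and 8.11% lower). Of the features called in the step from P28 to P60 37.2% were higher, and 51.6% after median-of-ratios scaling.

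The median of the 9 log2 changes was 0.69, -0.31, 0.15, 0.88, 0.03 and -0.23 over these 6 steps, and that of all tested features lay between -0.06 and 0.03. Consecutive steps share the libraries of the age between them, so a low age lowers one step and raises the next. Slc18a3 was the only member without a call from P6 to P15.

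**Figure D2:**
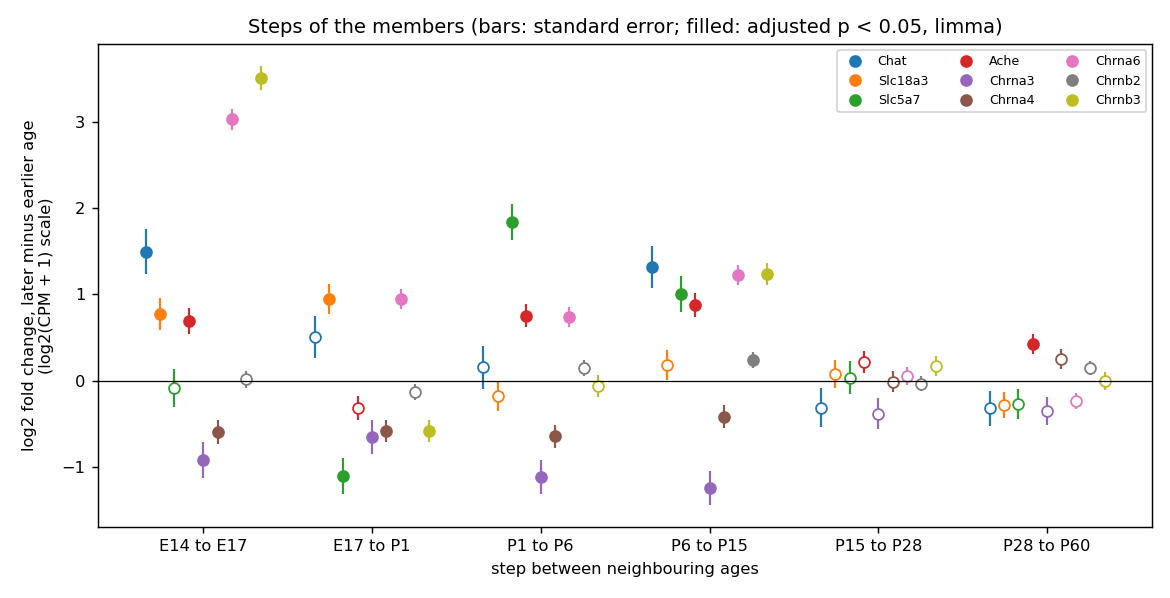
Change in log2(cpm + 1) (vertical axis) of each of the 9 genes in the 6 steps between neighbouring ages (horizontal axis), with standard errors as bars; filled points passed the limma test at an adjusted p under 0.05. Chrna6 and Chrnb3 lie above 3 from E14 to E17, and no point is filled from P15 to P28.

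Between the embryonic ages (E14 and E17 together) and the mature ages (P15, P28 and P60), all 9 genes were called, with 7 higher and 2 lower. Of all tested features 75.4% were called (35.0% higher, 40.4% lower). Chrna6 rose by 4.38 (SE 0.07, limma adjusted p = 6.73e-31), and Chrna3 fell by 3.83 (SE 0.12, adjusted p = 4.98e-23). Chrnb3 rose by 2.46, Chat by 2.41, Ache by 1.96, Slc5a7 by 1.63, Slc18a3 by 1.30 and Chrnb2 by 0.30, and Chrna4 fell by 1.86. The Chat and Slc18a3 values understate the change because embryonic levels were low, and with a pseudocount of 0.1 they were 4.19 and 2.63 and with edgeR 5.70 and 3.07.

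Between the ages of the cholinergic wave stage sampled here (P1 and P6) and the same mature libraries, 6 genes rose and 2 fell, against 65.8% of features called (26.8% higher, 39.0% lower). Slc18a3 was the exception, at 0.06 (SE 0.11, limma adjusted p = 0.645). Slc5a7 rose by 1.85, Chrna6 by 1.55, Ache by 1.54, Chrnb3 by 1.32, Chat by 1.08 and Chrnb2 by 0.34, while Chrna3 fell by 2.17 and Chrna4 by 0.66. The median over all features was -0.11 in this comparison and -0.02 after median-of-ratios scaling, and the 9 directions were the same under both.

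The makeup of the subunit transcripts was compared per kilobase of exon, since the genes differ in length. Of the summed level of the 3 alpha genes, Chrna3 held 65.8% ± 0.973 (SD, n = 3) at E14, 43.5% ± 1.66 (n = 4) at P1, 23.4% ± 4.67 (n = 3) at P6 and 3.78% ± 1.04 (n = 6) at P60. Chrna6 held 0.132% ± 0.12 at E14, 27.2% ± 0.336 at P1, 54.8% ± 6.10 at P6 and 83.7% ± 0.376 at P15. Between P1 and P6 Chrna6 therefore passed Chrna3, and neither gene's share at P6 overlapped its share at P1. Chrna4 held 34.1% ± 1.09 at E14, 10.3% ± 0.881 at P15 and 13.8% ± 1.94 at P60. Of the 2 beta genes together, Chrnb3 held 5.76% ± 1.34 at E14, 48.0% ± 2.22 at E17, 36.5% ± 0.61 at P6 and 54.8% ± 2.33 at P60, and Chrnb2 the rest. These are shares of transcripts, and the subunit makeup of the receptors was not measured.

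**Figure D3:**
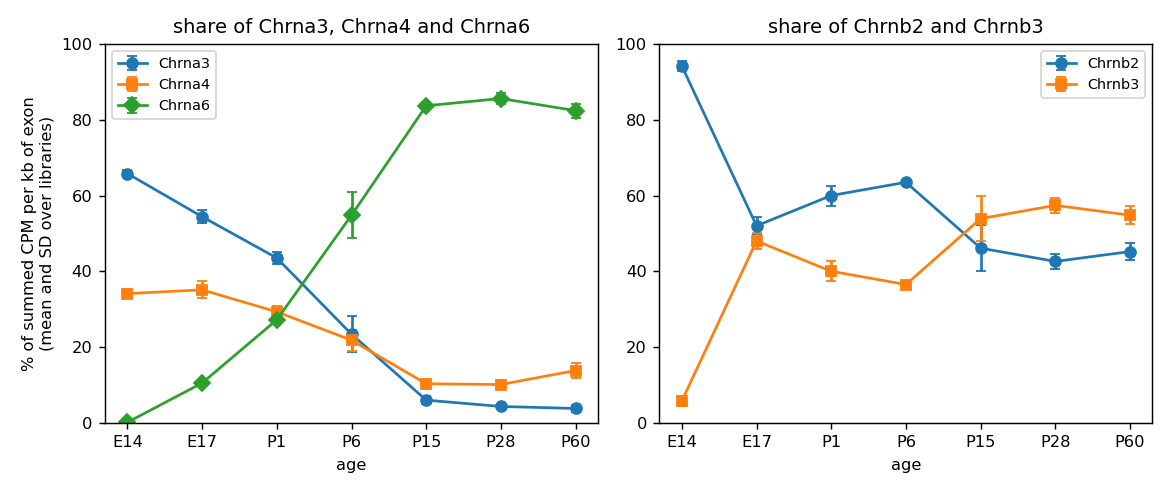
Share (%, vertical axis from 0 to 100) of each subunit in the summed cpm per kb of exon of the 3 alpha genes (left) and the 2 beta genes (right) by age (horizontal axis), as means with SD over 3 to 6 libraries. Chrna3 goes from 65.8% at E14 to 3.78% at P60, and Chrna6 from 0.132% to 82.4%.

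In order of level per kilobase at E14, Chrna3 stood first at 28.5 cpm per kb, then Chrna4 at 14.7, Chrnb2 at 6.56, Ache at 1.14 and Slc5a7 at 0.912. Ache and Slc5a7 overlapped. Chrnb3 followed at 0.40 cpm per kb, and Chrna6, Slc18a3 and Chat came last with overlapping ranges. At P1 Chrna3 was still first at 9.51 cpm per kb, and Chrna4 (6.43), Chrnb2 (6.08) and Chrna6 (5.95) were next with overlap between neighbours. At P6 the order began with Chrna6 at 10.2 and Chrnb2 at 6.74 cpm per kb, and Chrna3 (4.34), Chrna4 (4.05) and Chrnb3 (3.88) overlapped in turn.

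At P60 Chrna6 led with 21.4 cpm per kb. Chrnb3 (10.6), Chrnb2 (8.69) and Ache (8.40) came next, each overlapping its neighbour. Chrna4 (3.59), Slc5a7 (2.72), Chat (1.42), Chrna3 (0.995) and Slc18a3 (0.909) ended the order and also overlapped in turn. Chrna3 went from first to eighth of 9 between E14 and P60, while Chrna6 went from seventh to first. Chat, Slc18a3 and Slc5a7 had age means from 0 to 3.29 cpm per kb.

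Levels in whole retina also depend on how much of the RNA comes from the cells that use a gene. The genes of starburst cells were therefore set against 6 markers of amacrine cells in general (Tfap2a, Tfap2b, Slc6a9, Gad1, Gad2 and Slc32a1), and the subunits against 8 markers of ganglion cells (Rbpms, Pou4f1, Pou4f2, Sncg, Nefl, Nefm, Thy1 and Slc17a6). For each library the mean log2(cpm + 1) of the markers was subtracted. The 7 libraries of P1 and P6 were compared with the 14 mature libraries in 8 such tests. These were exact two-sided permutation tests over libraries, which cannot give a p below 8.6e-06. The p-values printed are unadjusted. A gene passed at a p under 0.05 after Benjamini-Hochberg adjustment over the 8 tests.

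Relative to the amacrine markers, Slc5a7 was higher in every mature library than in every P1 and P6 library, with means of -3.91 and -2.14 (difference 1.77, exact permutation p = 8.6e-06). Chat was higher by 0.86 (p = 0.000146, exact permutation), with overlapping ranges. Without Tfap2a among the markers the difference of Chat was 0.54. Slc18a3 was lower by a mean difference of -0.17 (p = 0.0441, exact permutation). With a pseudocount of 0.1 Slc18a3 did not pass (-0.17, adjusted p = 0.126, exact permutation). Without Slc6a9 among the markers Slc18a3 passed in the opposite direction (0.23, adjusted p = 0.0142, exact permutation). Without Gad1 its direction also turned, but it did not pass (0.05, adjusted p = 0.527, exact permutation). The difference was -0.03 without Slc32a1, -0.49 without Tfap2a, -0.42 without Tfap2b and -0.34 without Gad2. It no longer passed in 13 of the 21 single-library omissions, which were those of P1 replicates 1, 3 and 4, P6 replicates 1 and 3, P15 replicates 1 to 3, P28 replicate 1 and P60 replicates 2 to 5, with differences of -0.20 to -0.12 over all 21.

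Relative to the ganglion cell markers, Chrna3 was lower in every mature library (difference -2.32), and Chrna6 (1.57) and Chrnb3 (1.31) were higher in every mature library, each at the smallest p that the exact permutation test allows. Chrna4 was lower by a mean difference of -0.70 (p = 0.000241, exact permutation), with overlap. Chrnb2 was higher by 0.35 (p = 0.00718, exact permutation), also with overlap. The Chrnb2 difference was 0.57 without Thy1 among the markers, and it did not pass without Pou4f1 (0.19) or Pou4f2 (0.18). Against P6 alone 5 of the 8 genes passed. The share of all features that would pass such tests was not computed, so these counts have no background beside them. Slc5a7 (0.65) and Chrna6 (1.02) were among them, and Slc18a3 (-0.13), Chrna4 (-0.46) and Chrnb2 (0.14) did not pass.

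The marker lists themselves moved with age. Between P1 and P6 and the mature ages, 3 of 6 amacrine markers rose and 3 fell (median 0.14). Of 8 ganglion cell markers 4 rose and 4 fell (median 0.07). In that comparison 65.8% of all features were called (26.8% higher, 39.0% lower). Summed ganglion cell markers ranged from 1392 to 1440 cpm at E14, from 590 to 686 cpm at P1 and from 643 to 789 cpm at P60. Summed amacrine markers were 145 to 168 cpm at E14 and 855 to 970 cpm at P1. No marker of these lists was at 0 in all libraries of an age.

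**Figure D4:**
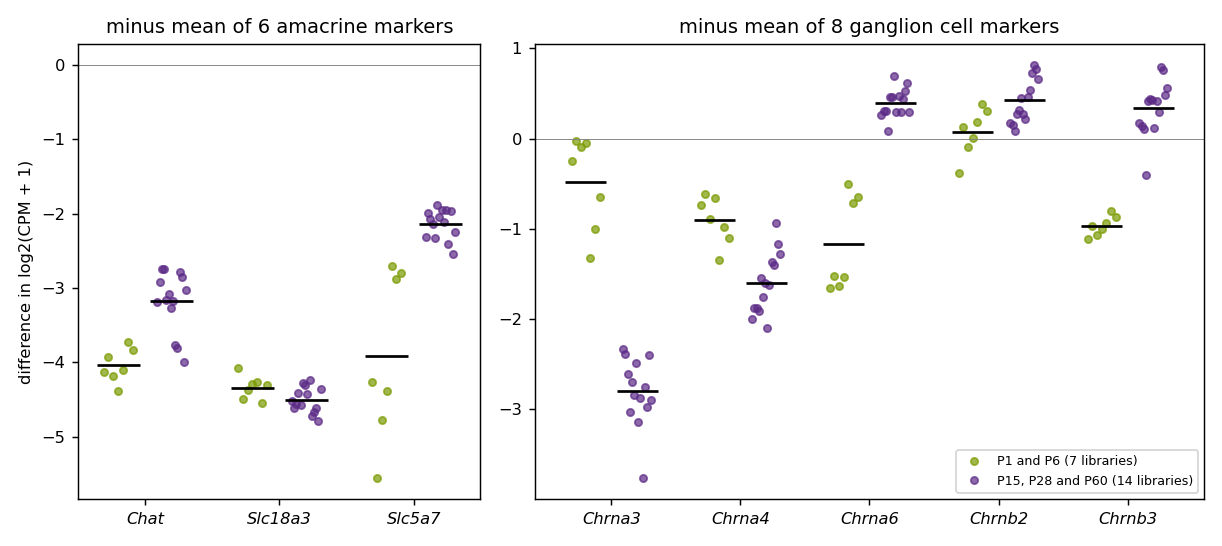
Difference in log2(cpm + 1) (vertical axis) between each gene and the mean of amacrine markers (left) or ganglion cell markers (right) in each library of P1 and P6 (7 points) and of the mature ages (14 points), with group means as lines. The groups do not overlap for Slc5a7, Chrna3, Chrna6 and Chrnb3.

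Most of the listed genes that are known to be enriched in starburst cells did not follow Chat. Of 7 (Megf10, Megf11, Sox2, Isl1, Fezf1, Frmd7 and Rnd3), only Fezf1 rose from P1 and P6 to the mature ages, by 0.66 (limma adjusted p = 0.000988), 5 fell and Megf11 did not pass (adjusted p = 0.634). Their median was -0.72, with -0.11 over all features, of which 65.8% were called (26.8% higher, 39.0% lower). From the embryonic to the mature ages 1 rose (Frmd7, 1.78), 4 fell and 2 did not pass (median -0.26). In that comparison 75.4% of all features were called (35.0% higher, 40.4% lower). Several of these genes are also used outside starburst cells, Sox2 by progenitors and Müller glia and Isl1 by ganglion and bipolar cells. Megf10, which spaces starburst cells, had means of 63.8 cpm at P1 and 18.1 cpm at P60. The summed list ranged from 753 to 793 cpm at E14 down to 176 to 231 cpm at P60. Isl1, Rnd3 and Sox2 had its highest means at E14 (317.0, 196.0 and 182.9 cpm), so the sum mainly follows these genes there.

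Among the other nicotinic subunits, 9 of 11 were in the table and 6 passed the filter on low values. From the embryonic to the mature ages 4 of the 6 rose and 2 fell (median 0.92, with -0.07 over all features). In that comparison 75.4% of all features were called (35.0% higher, 40.4% lower). Chrnb4, the β4 subunit next to Chrna3, fell by 3.33 (SE 0.14, limma adjusted p = 1.32e-19). Its level stayed near that of E14 through P1, with 34.2 cpm ± 1.80 (SD, n = 3) at E14 and 30.3 ± 0.764 (n = 4) at P1, and then went from 22.3 ± 0.41 (n = 3) at P6 to 3.24 ± 0.156 (n = 4) at P15. Chrna3 in contrast was lower at each age of that span. Chrna5, on the other side of Chrna3, had 8.76 to 10.9 cpm at P6 between 2.58 to 4.26 cpm at P1 and 1.87 to 4.08 cpm at P15, and its rise of 1.26 and fall of 1.37 passed the limma test (adjusted p = 3.33e-05 and 1.46e-05). The 3 neighbours of this cluster thus fell by P15 along different courses.

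Chrnb1, known best from muscle, rose by 2.79 (limma adjusted p = 9.1e-24), from 2.46 cpm at E14 to 30.02 cpm at P15, while summed muscle markers went from 0.40 to 1.05 cpm at E14 to 5.14 to 6.05 cpm at P15 and the muscle gene Ckm rose by 1.69. Their part in the Chrnb1 values was not tested. Chrna7 rose by 1.40 (adjusted p = 3.1e-14). Chrna2 was at 0 or 1 read in the embryonic libraries and at 7.16 cpm ± 1.27 (SD, n = 4) at P15. The sixth, Chrne, was below 1 cpm on average at every age. Chrna9 and Chrnd were not analysed here.

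All 5 muscarinic receptors, which act through G proteins, were tested. From the embryonic to the mature ages 4 rose and 1 fell (median 0.90), where 75.4% of all features were called (35.0% higher, 40.4% lower). Chrm2 rose by 4.35 (SE 0.11, limma adjusted p = 1.55e-25), from 0.766 cpm at E14 to 39.9 cpm at P15, and Chrm1 by 2.43. Chrm3 fell by 0.23 (adjusted p = 0.0398), with means of 22.4 cpm at E14, 9.67 cpm at E17, 4.35 cpm at P1 and 13.4 cpm at P15. The E17 mean was below those of all 3 mature ages, and the groups overlapped.

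**Figure D5:**
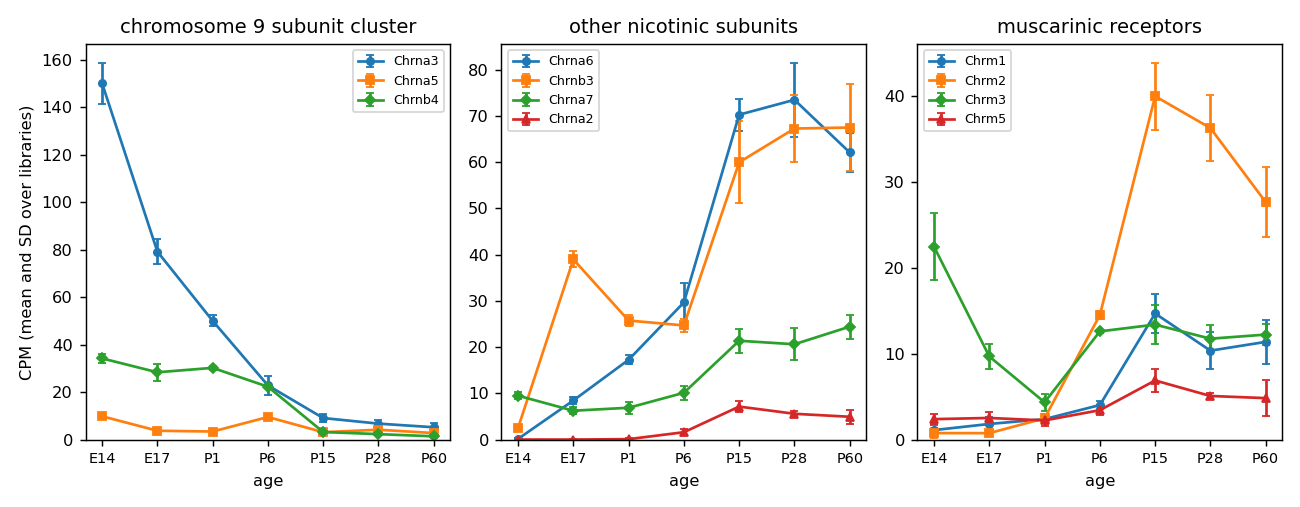
Level in cpm (vertical axes, starting at 0) of further nicotinic and muscarinic receptor genes by age (horizontal axis), as means with SD over 3 to 6 libraries. Chrnb4 drops from 22.3 cpm at P6 to 3.24 cpm at P15, and Chrm2 goes from 14.5 to 39.9 cpm.

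Of 7 chaperones and prototoxins that act on nicotinic receptors, 6 were tested. From the embryonic to the mature ages 2 rose, 3 fell and 1 did not pass (median -0.28), a share of calls near the 75.4% of all features. Lynx1, a membrane prototoxin that restrains nicotinic receptors, rose by 4.40 (SE 0.11, limma adjusted p = 8.99e-26). Its mean went from 20.6 cpm at P6 to 113.3 cpm at P15. The chaperone Ric3 rose by 1.60. Of 4 tested genes of choline transport, esterase anchoring and butyrylcholinesterase, 2 rose and 2 fell (median 0.69). Prima1, the anchor of acetylcholinesterase in neuronal membranes, rose by 2.52 (adjusted p = 3.02e-17), in the same direction as Ache, and Bche fell by 1.08 (adjusted p = 3.82e-07).

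Genes of the wave stages before and after the cholinergic one were also counted. Of Gjd2, Gjc1, Slc17a7, Slc17a8 and Grm6, 4 rose from P1 and P6 to the mature ages (median 2.90). Gjc1 fell by 2.02 (limma adjusted p = 7.64e-18). In that comparison 65.8% of all features were called (26.8% higher, 39.0% lower). Gjc1 encodes connexin 45 and Gjd2 connexin 36 of gap junctions. Slc17a7 encodes the vesicular glutamate transporter of photoreceptors and bipolar cells, and it rose by 4.10 (adjusted p = 4.11e-27).

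For each member the 3 genes with the most similar course were found by Pearson r of log2(cpm + 1) over the 27 libraries, among 13578 features with a Gene ID and a mean of at least 5 cpm. The libraries share 7 ages, so r is high for any genes that rise or fall with age. Chat was nearest to Calb2 (0.9621), which encodes calretinin, then to Adgra1 and Rapgef4. Slc18a3 was nearest to Gpr37 (0.9568), Slc5a7 to Fam78b (0.964) and Ache to Ttll5 (0.9839). Chrna3 was nearest to Fam171a1 (0.9887), Ctnnb1 and Fbn2, and Chrna4 to Grb10 (0.9784). Chrna6 was nearest to Gad1 (0.9901), the GABA-synthesizing enzyme, then to Thy1 (0.9896) and Slc6a11 (0.9895). Thy1 is 1 of the 8 ganglion cell markers, of which 2 rose and 5 fell from the embryonic to the mature ages. In that comparison 75.4% of all features were called (35.0% higher, 40.4% lower). Chrnb3 was nearest to Chd5 (0.9716), and Chrnb2, with the flattest course, to Whrn (0.9126).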

How the data were processed

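The deposited table holds cpm values that the authors made from RNA of whole retinas: total RNA libraries (SMARTer), single-end reads and alignment to GRCm38/mm10 with STAR. The annotation and strand setting of the counting are not given in the sources used here. Of the values, 100% were whole multiples of 1 read (within 0.02 reads), and reads were recovered for edgeR and DESeq2 as alternatives. Per comparison edgeR called 674 (P15 to P28) to 24061 features (embryonic to mature), and limma 864 to 23951. The labels state the same number of retinas per library throughout, and the study's methods state larger pools; these differ. All 27 libraries were used, and 0 columns of other samples were present.

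Levels are cpm as deposited. Limma 3.58.1 (R 4.3.3) was fitted to log2(cpm + 1), a scale that understates changes of low genes, using a mean-variance trend and age as the factor. The 31760 features at 1 cpm or more in 3 or more libraries entered. Moderated two-sided tests were adjusted by the Benjamini-Hochberg method across these features and called at an adjusted p under 0.05. In the limma contrasts the embryonic, P1 and P6, and mature values are means of age means. The permutation tests compared means over libraries, in which ages with more libraries weigh more. Exact permutation tests and exact counting intervals used Python 3.11.15 with scipy 1.17.1. Intervals and floors (3 reads) cover counting error only. Exon lengths and positions came from the GENCODE M21 annotation of GRCm38. Tests were tried on simulated data. Alternatives were another pseudocount (0.1), no filter, a mean of at least 10 cpm, median-of-ratios scaling, the replicate block, the compared ages only, edgeR 4.0.16, DESeq2 1.42.0, a log2 change of at least 1, single markers left out and each library left out in turn.

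The members and gene lists were chosen with earlier results of these data known. Named genes are the 9 members, genes of these lists, by count or largest change, and the 3 most similar genes per member. The lists cover other nicotinic and muscarinic receptors, receptor chaperones and prototoxins, acetylcholine enzymes and anchors, other wave stages, and markers of starburst, amacrine, ganglion, rod, muscle, pigment epithelium, lens and blood cells.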

Additional observations from a re-analysis of the deposited data

How the results depend on the processing

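For single genes under all alternatives, 3001 results kept their side of the threshold, and the called ones among them also kept their direction. A further 75 lost the threshold, 2 gained it, and 2 with a call in either fit reversed. Results without a call in either fit counted as kept even where their sign changed. From P28 to P60, where limma called 1 gene (Ache), the replicate block and a fit of the compared ages only called 0, DESeq2 called 2, and leaving out 1 library gave 0 to 2 (0 without P28 replicate 1 or 3, 2 without P60 replicate 1). Requiring a log2 change of at least 1 left 3 genes at E17, 1 at P1, 2 at P6, 5 at P15 and 0 at P60, each against the age before, since smaller changes are then not counted. Leaving out 1 library gave 5 to 6 genes from E17 to P1 and 6 to 8 from P6 to P15, and the same counts as with all libraries for the other 5 comparisons (7, 5, 0, 9 and 8). Relative to cell markers, P6 alone against the mature ages gave 5 of 8 genes, and leaving out 1 library 7 to 8, with no share of all features computed. Slc18a3 relative to amacrine markers turned to 0.233 without Slc6a9, which passed, and to 0.048 without Gad1, which did not. The cause was not tested. The replicate numbers did not pair the libraries: deviations of libraries with the same number correlated at -0.129 to 0.167 (median -0.002), and 3 of 25 libraries were nearest to their own number. The block also took up P60 replicates 5 and 6, and apart from Ache it ended 1 member's call, that of Chrnb2 from P6 to P15 (adjusted p = 0.0772). Median-of-ratios scaling moved the share of higher calls among all features by over 10 points only from P28 to P60 (37.2% to 51.6%). EdgeR without E14 replicate 1, where the value of 1 read is nearly round, was added after seeing the data and called 7 genes from P6 to P15. Few reads at E14 limit the folds of Chat, Slc18a3 and Chrna6. Their log2 change from E14 to E17 was 1.496, 0.77 and 3.02 with limma, 4.26, 2.40 and 5.21 with a pseudocount of 0.1 and 6.90, 2.89 and 5.48 with edgeR (6.88, 3.68 and 6.11 without E14 replicate 1).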
